A study of Homo sapiens with 12 samples.

Results

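The genes described here encode the proteasome, the protease that destroys proteins tagged with ubiquitin. They were taken as every protein-coding gene of the count table whose symbol is PSMA, PSMB, PSMC, PSMD, PSME, PSMF or PSMG followed by a number, without the interferon-inducible subunits PSMB8 and PSMB9. This gave 46 genes of 19951 protein-coding genes. PSMA8 and PSMB11, the subunits of the testis and thymus proteasomes, had 0 counts in every library, and the remaining 44 passed the filter on low counts. The rule used names and biotypes only, not measured values, but the genes were chosen with earlier results of these data known.

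RNA was measured by polyA RNA-seq in C4.2B, a human prostate cancer line that descends from LNCaP and grows without androgen. There were 12 libraries, 3 in each of 4 arms. DMSO cells received vehicle, AKTi cells 0.25 μM ipatasertib (IPATA in the labels), EZH2i cells 1 μM tazemetostat (TAZ) and combination cells (COMBO) both agents at these doses. Tazemetostat was given for 6 days beforehand in the EZH2i and combination arms, and the other cells were kept in DMSO over that time. Every arm then received its agents or vehicle for 24 hours before RNA was taken, tazemetostat being continued and ipatasertib given only then. The medium of these 24 hours held charcoal-stripped serum, which is poor in androgen. All plates came from this single line. Per the paper, the pretreatment came first and the cells were split into triplicate plates the day before dosing. Nothing says that the 3 plates of an arm were started from separate cultures, so the p-values measure the spread between plates.

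The proteasome has a barrel-shaped core particle made of alpha rings, through which substrates enter, and beta rings, which hold the proteolytic sites of PSMB5 (chymotrypsin-like), PSMB6 (caspase-like) and PSMB7 (trypsin-like). A regulatory particle caps the barrel. Its base contains 6 ATPases (PSMC1 to PSMC6) that unfold substrates, and its lid contains PSMD14, the enzyme that cuts ubiquitin chains off the substrate. Dedicated chaperones build the core, PSME proteins form alternative caps, and PSMF1 is an inhibitor. The transcription factor NRF1, encoded by NFE2L1, raises proteasome genes together when proteasome activity is short, through antioxidant response elements in their promoters. Prostate cancer cells, like other cells that make much protein, depend on this complex.

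The library totals ran from 14133755 to 22276417 counts. Levels are given as CPM, counts scaled to the size of each library, with TMM factors that set the libraries on a common scale from the bulk of their genes. All 9 luminal prostate markers were above 1 CPM in every library, with summed levels from 3866 to 3995 CPM in DMSO, 5998 to 6177 with AKTi, 6691 to 6922 with EZH2i and 8663 to 8849 in the combination, and their part in the results was not tested. Against the DMSO mean, only KRT18 was lower with AKTi (256 against 289 CPM) and only FOLH1 with EZH2i (927 against 998). In the combination only HOXB13 was lower (294 against 424). Of 5 markers of other cell types only COL1A1 was above 1 CPM in every library, KRT5 was at 0 in all, and the 5 summed to 4.51 to 7.61 CPM in DMSO, 4.41 to 6.40 with AKTi, 15.96 to 18.6 with EZH2i and 9.85 to 15.4 in the combination, whose part was not tested either. Since the RNA was bulk, fewer cells expressing a gene and less RNA per cell cannot be told apart. A gene was called at an adjusted p-value under 0.05 (edgeR quasi-likelihood test, Benjamini-Hochberg over 16646 genes).

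Because the proteasome genes moved together, their promoters were read from RefSeq (GRCh38.p14, 250 bases before to 50 after the gene start), where 40 of the 46 genes had an entry. PSMA7, PSMB1, PSMB6, PSMB7, PSMD4 and PSMG3 had none. Letters were matched on both strands, and no match of 1 motif overlapped that of another. The core of the antioxidant response element, TGACNNNGC, was in 12 of the 40 promoters (30.0%) against 13.6% of 27305 promoters. The ETS site CCGGAAGT was in 8 of 40, against 4.44% of all promoters, the CCAAT box in 18 (45.0% against 35.7%) and the E-box CACGTG in 3 (7.50% against 7.43%). A match in these letters is a description of the window, not evidence of binding. The stretches below show the element, in capitals, in a beta subunit (PSMB3), a lid subunit (PSMD12), an activator subunit (PSME2) and the chaperone pair PSMG1 and PSMG2, genes whose responses differed. They lie at chr17:38752617-38752665 (plus strand), chr17:67366714-67366762 (minus), chr14:24146757-24146805 (minus), chr21:39183606-39183654 (minus) and chr18:12658679-12658727 (plus), all before the RefSeq gene start and each written 5′ to 3′ along the gene. The count table places the starts of PSME2, PSMG1 and PSMG2 further upstream. By its coordinates the stretches of these genes lie inside the genes.
PSMB3: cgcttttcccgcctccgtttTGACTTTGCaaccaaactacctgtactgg
PSMD12: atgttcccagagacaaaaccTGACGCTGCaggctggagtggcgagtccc
PSME2: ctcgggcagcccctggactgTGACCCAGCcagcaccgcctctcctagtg
PSMG1: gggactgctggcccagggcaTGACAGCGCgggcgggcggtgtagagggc
PSMG2: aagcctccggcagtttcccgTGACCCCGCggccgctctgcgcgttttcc
The first 3 genes and PSMG1 fell with each agent and again with both, while PSMG2 fell to overlapping levels in all treated arms.

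Proteasome genes were lower in all 3 treated arms, and most were lowest in the combination. Against DMSO, 43 of 44 genes were called lower in the combination, where 35.2% of all genes tested were, and 1, PSMB10, was called higher (38.0% of all genes). AKTi alone lowered 36 genes and raised none (21.9% and 20.6% of all genes), and EZH2i alone lowered 41 and raised 1 (31.5% and 32.6%). The median log2 fold change over the 44 genes was -0.36 with AKTi, -0.45 with EZH2i and -0.92 in the combination, while over all genes tested it was 0.01, 0.03 and 0.06. Scaling by library size instead of TMM moved the combination median of all genes to 0.26 and that of the proteasome genes to -0.73, and the distance between the medians stayed at -0.98 (-0.99 with TMM). At an unadjusted p-value under 0.05 AKTi again raised 0 genes, and DESeq2 also called 0. The 3 comparisons share the DMSO libraries.

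**Figure D1:**
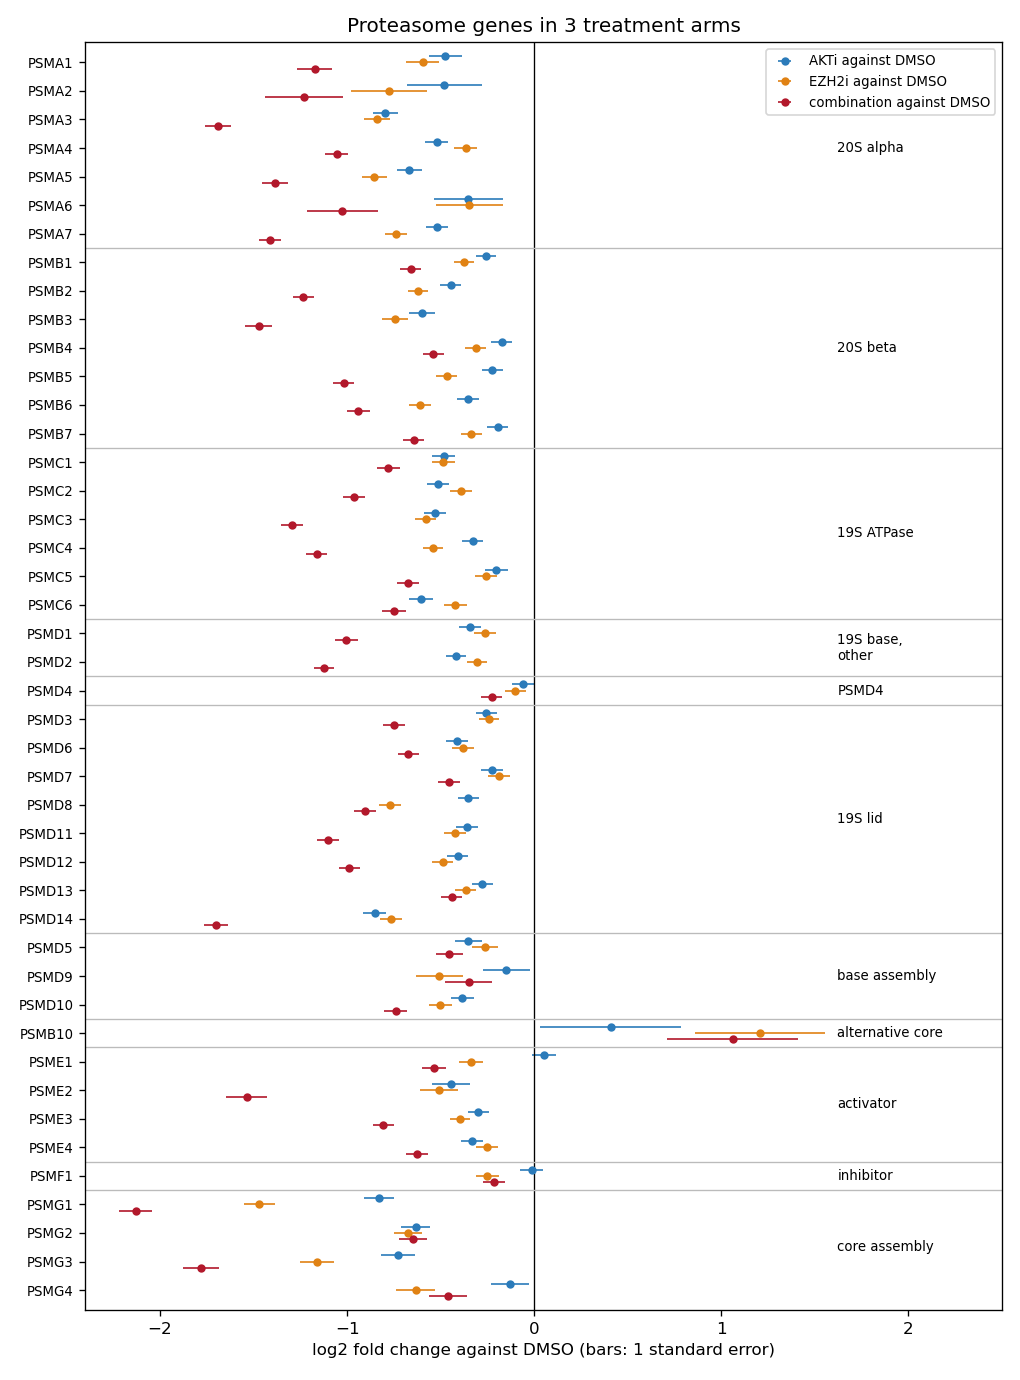
Log2 fold change against DMSO (x axis) of the 44 proteasome genes tested (y axis, grouped by role) with AKTi, EZH2i and the combination. Points are edgeR estimates and bars 1 standard error. The combination points lie furthest left for most genes, down to -2.13 for PSMG1, and PSMB10 alone lies right of 0 in the combination, at 1.06.

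The alpha ring of the core fell in full. All 7 subunits were lower in the combination than in DMSO (35.2% of all genes). The log2 fold changes were -1.69 for PSMA3, -1.41 for PSMA7, -1.39 for PSMA5, -1.23 for PSMA2, -1.17 for PSMA1, -1.05 for PSMA4 and -1.03 for PSMA6. These subunits form the gate of the barrel. PSMA3 stood at 190, 184 and 157 CPM in the DMSO libraries, at 102, 98.6 and 104 with AKTi, at 96.2, 102 and 97.3 with EZH2i and at 56.4, 48.5 and 59.1 in the combination. The combination libraries were thus below every library of the single agents, and the single agents did not separate from each other. PSMA7 went from 352 ± 19.7 CPM in DMSO (SD, n = 3) to 246 ± 10.4 with AKTi, 211 ± 17.5 with EZH2i and 132 ± 2.67 in the combination.

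Levels of 3 alpha subunits are uncertain. PSMA1, PSMA2 and PSMA6 each overlap another protein-coding gene on the same strand (AC018523.2, AC010132.3 and AL121594.1). Per kilobase of gene length, PSMA2 and PSMA6 had 1.32 ± 0.23 and 1.13 ± 0.20 CPM in DMSO (SD, n = 3) and PSMA1 had 11.996 ± 0.83, while the other alpha subunits had 40.9 to 201. The overlapping genes themselves had at most 0.369 CPM in any library. How reads that lie on 2 genes were treated is not given in the sources used here, and their part in these low levels was not tested. PSMD9 and PSMB10 are overlapped in the same way, by WDR66 and AC069503.2 and by AC040162.1. Without these 5 genes 39 proteasome genes were called lower in the combination and none higher (35.2% and 38.0% of all genes).

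The beta ring fell less evenly. All 7 subunits were called lower in each of the 3 treated arms (21.9% of all genes with AKTi, 31.5% with EZH2i and 35.2% in the combination). In the combination the log2 fold changes were -1.47 for PSMB3 and -1.23 for PSMB2, structural or assembly-directing subunits without a proteolytic site, and only -0.66 for PSMB1 and -0.54 for PSMB4, which have none either. Of the 3 proteolytic subunits, PSMB5 and PSMB6 lay between these pairs, and PSMB7 stood at -0.64.

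PSMB5 (chr14:23016543-23035230), the target of bortezomib, stood at 181, 179 and 172 CPM in DMSO, at 152, 151 and 152 with AKTi, at 134, 122 and 128 with EZH2i and at 84.3, 86.9 and 91.5 in the combination. No arm overlapped another. The log2 fold change in the combination was -1.02 ± 0.06 (SE, adjusted p = 1.66e-18), against -0.22 with AKTi and -0.47 with EZH2i.

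PSMB6 (chr17:4796144-4798503) stood at 179, 169 and 163 CPM in DMSO, at 129, 129 and 141 with AKTi, at 120, 103 and 111 with EZH2i and at 86.8, 89.9 and 88.9 in the combination. The arms were again in the order DMSO, AKTi, EZH2i and combination with no overlap. Its log2 fold change was -0.94 ± 0.06 in the combination (SE, adjusted p = 1.82e-16), -0.35 with AKTi and -0.61 with EZH2i.

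PSMB7 (chr9:124353466-124415444) fell least of the 3. It stood at 190, 185 and 184 CPM in DMSO, at 164, 163 and 162 with AKTi, at 158, 140 and 145 with EZH2i and at 125, 120 and 113 in the combination, again without overlap. Its log2 fold change in the combination was -0.64 ± 0.06 (SE, adjusted p = 9.80e-13), against -0.19 with AKTi and -0.34 with EZH2i. The log2 ratio of PSMB5 to PSMB7 was -0.07 ± 0.03 in DMSO (SD, n = 3), -0.10 ± 0.01 with AKTi, -0.20 ± 0.03 with EZH2i and -0.44 ± 0.13 in the combination, so that the mRNAs of these proteolytic subunits did not keep a fixed ratio.

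**Figure D2:**
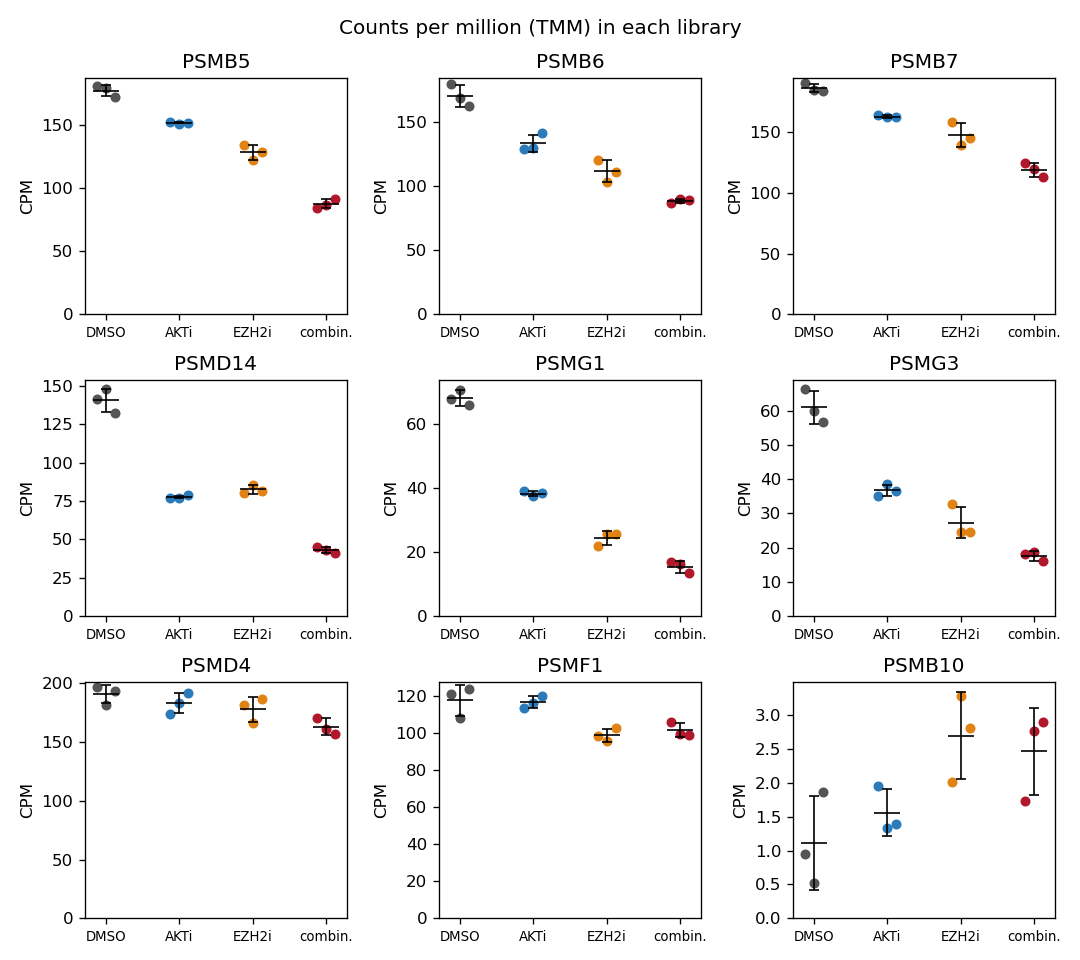
CPM (y axis, from 0) of 9 proteasome genes in each library, by arm. Points are libraries, and the bars show the mean and SD of 3. PSMB5, PSMB6, PSMB7, PSMD14, PSMG1 and PSMG3 show combination libraries below all others, PSMD4 and PSMF1 show overlapping EZH2i and combination libraries, and PSMB10 stays at or below 3.27 CPM.

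In the regulatory particle, all 17 subunits were lower in the combination (35.2% of all genes). The ATPases fell by log2 fold changes of -1.29 for PSMC3, -1.16 for PSMC4, -0.96 for PSMC2, -0.78 for PSMC1, -0.75 for PSMC6 and -0.67 for PSMC5. Each was also called lower with AKTi and with EZH2i (21.9% and 31.5% of all genes). PSMD2 and PSMD1, the large scaffold proteins of the base, had log2 fold changes of -1.13 and -1.00. PSMD2 stood at 648, 618 and 700 CPM in DMSO, at 483, 486 and 504 with AKTi, at 531, 508 and 550 with EZH2i and at 310, 295 and 296 in the combination. For this scaffold, EZH2i libraries were all above AKTi libraries, the reverse of the order seen for PSMB5.

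The lid spanned a wider range than the rings or the ATPases. PSMD14 (chr2:161308038-161411717), the lid deubiquitinase, stood at 141, 148 and 132 CPM in DMSO, at 77.0, 77.1 and 78.7 with AKTi, at 80.1, 85.6 and 81.7 with EZH2i and at 45.3, 43.0 and 41.1 in the combination. Each single agent thus lowered it to similar levels, the AKTi libraries all slightly below the EZH2i libraries, and the combination went lower again, to a log2 fold change of -1.70 ± 0.06 (SE, adjusted p = 1.04e-23). The remaining lid subunits are scaffold and docking proteins. Their log2 fold changes were -1.10 for PSMD11, -0.99 for PSMD12, -0.91 for PSMD8, -0.75 for PSMD3, -0.67 for PSMD6, -0.45 for PSMD7 and -0.44 for PSMD13.

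PSMD4 (chr1:151254703-151267479), a receptor that binds ubiquitin chains, moved little. It stood at 197, 182 and 194 CPM in DMSO, at 174, 184 and 191 with AKTi, at 181, 166 and 187 with EZH2i and at 171, 161 and 157 in the combination. The combination libraries were below the DMSO libraries but overlapped those of EZH2i. The log2 fold change of -0.23 ± 0.06 in the combination was called (SE, adjusted p = 0.0006), but under library-size scaling it was -0.03 and not called. With AKTi and EZH2i it was -0.06 and -0.10, neither called, but the EZH2i value was called, at -0.15 to -0.19, without DMSO replicate B, AKTi replicate B or C, or EZH2i replicate C.

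Core and regulatory particle fell by similar amounts, with a somewhat larger fall of the core. The median log2 fold change of the 14 core and 17 regulatory subunits was -0.46 and -0.36 with AKTi, -0.60 and -0.39 with EZH2i, and -1.11 and -0.91 in the combination. All 14 and all 17 were called lower in the combination (35.2% of all genes). With AKTi 12 and 16 were (21.9%), and with EZH2i 13 and 16 (31.5%). The core genes not called were PSMA2 and PSMA6 with AKTi and PSMA6 with EZH2i, both overlapped genes with few counts. The lists spread widely inside each particle, from -1.69 (PSMA3) to -0.54 (PSMB4) in the core and from -1.70 (PSMD14) to -0.23 (PSMD4) in the cap, so the ranges overlapped almost entirely.

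The same was seen library by library. The mean log2 CPM of the core subunits, relative to DMSO, was -0.43 ± 0.01 with AKTi (SD, n = 3), -0.57 ± 0.05 with EZH2i and -1.10 ± 0.06 in the combination, and that of the regulatory subunits -0.39 ± 0.03, -0.41 ± 0.02 and -0.88 ± 0.04. Core minus regulatory ran from -0.13 to 0.07 in DMSO, from -0.08 to -0.02 with AKTi, from -0.20 to -0.10 with EZH2i and from -0.27 to -0.17 in the combination. The combination libraries were below the DMSO libraries, while AKTi and EZH2i overlapped with DMSO, and the combination overlapped with EZH2i. DMSO replicate C was the lowest of its arm, so the spread in the controls was of the same order as the difference. The difference of the medians was -0.21 in the combination, -0.12 without combination replicate B and -0.33 with the regulatory subunits ADRM1 and SEM1 added. With AKTi it was -0.10, and 0.0061 without DMSO replicate B. No p-value is given for these means over chosen genes. Without the overlapped PSMA1, PSMA2 and PSMA6, the combination libraries ran from -0.23 to -0.19 and the DMSO libraries from -0.11 to 0.07.

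Within the core, the alpha ring had the lower mean in the combination. Relative to DMSO, the alpha mean was -1.28 ± 0.12 (SD, n = 3) and the beta mean -0.93 ± 0.02 in the combination, and the ATPases and lid lay at -0.94 ± 0.04 and -0.88 ± 0.03, next to the beta ring. Alpha minus beta ran from -0.10 to 0.09 in DMSO, from -0.25 to -0.20 with AKTi, from -0.18 to -0.10 with EZH2i and from -0.49 to -0.25 in the combination. AKTi and combination libraries were below all DMSO libraries on this measure, and 1 EZH2i library was not.

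**Figure D3:**
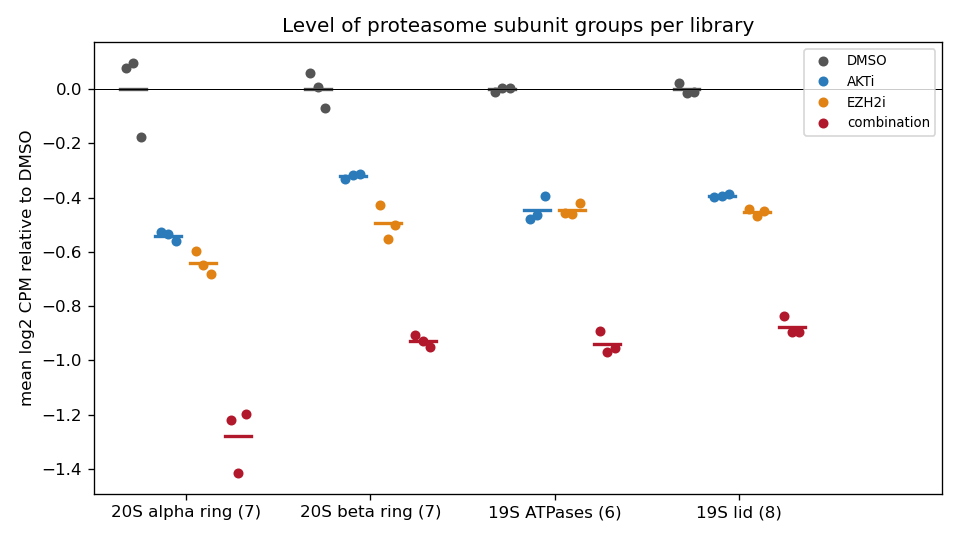
Mean log2 CPM relative to the DMSO mean (y axis) over the subunits of the alpha ring, beta ring, ATPases and lid (x axis, number of genes in parentheses), by arm. Points are libraries and short lines arm means. In each group the combination libraries lie below those of the other arms, and the alpha ring lies lowest, with a mean of -1.28.

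Compared per length, as CPM per kilobase of the gene length in the file, core genes had the higher median. That length ran from 1179 bases (PSMB3) to 9123 (PSMD6) in these genes, and its relation to the length of the mRNA is not given. In CPM without length the DMSO medians of the 2 particles were close when the 3 overlapped alpha subunits were counted. Without them the middle core gene, PSMB1, had 214 CPM and the middle regulatory gene, PSMC5, 180. The size of the gap thus depends on this length column and on those subunits. The median level was 75.7 for the 14 core genes and 40.0 for the 17 regulatory genes in DMSO, and 35.4 and 25.4 in the combination. PSMA7 had the highest core level in DMSO, 201, and PSMD2 the highest regulatory level, 120. The lowest regulatory level passed from PSMC1 in DMSO (17.1) to PSMD14 in the combination (5.60). In CPM without length, PSMD7 was lowest in DMSO (95.5) and PSMD14 in the combination (43.1). Without the 3 overlapped alpha subunits the core medians were 101 in DMSO and 59.95 in the combination.

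Of the chaperones that build the core, PSMG1 and PSMG3 had the lowest log2 fold changes of all 44 genes in the combination, while their partners PSMG2 (-0.65) and PSMG4 (-0.46) lay above the median of -0.92. PSMG1 and PSMG2 work as a heterodimer, as do PSMG3 and PSMG4, to assemble the alpha ring. PSMG1 (chr21:39174769-39183851) stood at 67.7, 70.7 and 65.9 CPM in DMSO, at 38.9, 37.5 and 38.3 with AKTi, at 22.03, 25.8 and 25.6 with EZH2i and at 16.8, 16.4 and 13.4 in the combination. Each arm was separate from the next, and the log2 fold change of -2.13 ± 0.09 in the combination (SE, adjusted p = 2.21e-22) was the lowest of all 44 genes, as was its -1.47 with EZH2i.

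PSMG2 (chr18:12658043-12725740) followed another course. It stood at 70.6, 73.9 and 64.5 CPM in DMSO, at 43.5, 49.2 and 41.6 with AKTi, at 45.7, 44.8 and 40.4 with EZH2i and at 43.4, 47.0 and 42.8 in the combination, so that the treated arms overlapped fully. Its log2 fold change was -0.63 with AKTi, -0.68 with EZH2i and -0.65 in the combination, each called. The combination differed from AKTi by -0.01 ± 0.08 and from EZH2i by 0.03 ± 0.08 (SE), neither called. The log2 ratio of PSMG1 to PSMG2 went from -0.03 ± 0.05 in DMSO (SD, n = 3) to -0.22 ± 0.15 with AKTi, -0.83 ± 0.20 with EZH2i and -1.52 ± 0.15 in the combination.

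PSMG3 (chr7:1567330-1571005) stood at 66.3, 59.9 and 56.6 CPM in DMSO, at 35.2, 38.5 and 36.5 with AKTi, at 32.7, 24.7 and 24.7 with EZH2i and at 18.0, 18.9 and 16.1 in the combination. The order matched that of PSMG1, without overlap, and the log2 fold change in the combination was -1.78 ± 0.10 (SE, adjusted p = 7.60e-19). PSMG4 fell by 0.46 on the log2 scale in the combination, and its combination libraries lay inside the range of EZH2i. The log2 ratio of PSMG3 to PSMG4 was 1.05 ± 0.04 in DMSO (SD, n = 3), 0.46 ± 0.03 with AKTi, 0.53 ± 0.07 with EZH2i and -0.27 ± 0.11 in the combination. The level of such a ratio depends on the lengths of both genes, and only its change between arms is read. Among the factors that assemble the base, PSMD10 had a log2 fold change of -0.74, PSMD5 of -0.45 and PSMD9 of -0.35, each called in the combination. PSMD9 was not called there under library-size scaling (-0.15), and per kilobase it had only 1.47 ± 0.11 CPM in DMSO (SD, n = 3). WDR66, which overlaps PSMD9 on its strand, went the other way, from 3.90 ± 1.13 CPM in DMSO to 8.11 ± 1.05 in the combination. Its part in the PSMD9 values was not tested.

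Alternative caps were also lower. PSME2 and PSME1 form the PA28 activator, best known from interferon-treated cells, PSME3 forms its nuclear relative and PSME4 is PA200. PSME2 stood at 48.3, 39.5 and 38.7 CPM in DMSO, at 31.2, 31.7 and 29.8 with AKTi, at 35.4, 27.5 and 26.3 with EZH2i and at 12.7, 16.2 and 14.7 in the combination. The single agents overlapped, and every combination library was below them, with a log2 fold change of -1.54 ± 0.11 against DMSO (SE, adjusted p = 2.22e-15).

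Its partner PSME1 had 84.1 ± 5.99 CPM in DMSO (SD, n = 3), 87.0 ± 0.70 with AKTi, 66.5 ± 2.90 with EZH2i and 57.8 ± 1.52 in the combination. PSME1 was not called with AKTi (log2 fold change 0.05 ± 0.06, adjusted p = 0.549 with edgeR), and the combination change was -0.54. The log2 ratio of PSME2 to PSME1 was -1.00 ± 0.15 in DMSO, -1.49 ± 0.06 with AKTi, -1.17 ± 0.22 with EZH2i and -1.99 ± 0.21 in the combination (SD, n = 3). PSME3 and PSME4 had log2 fold changes of -0.81 and -0.63 in the combination.

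**Figure D4:**
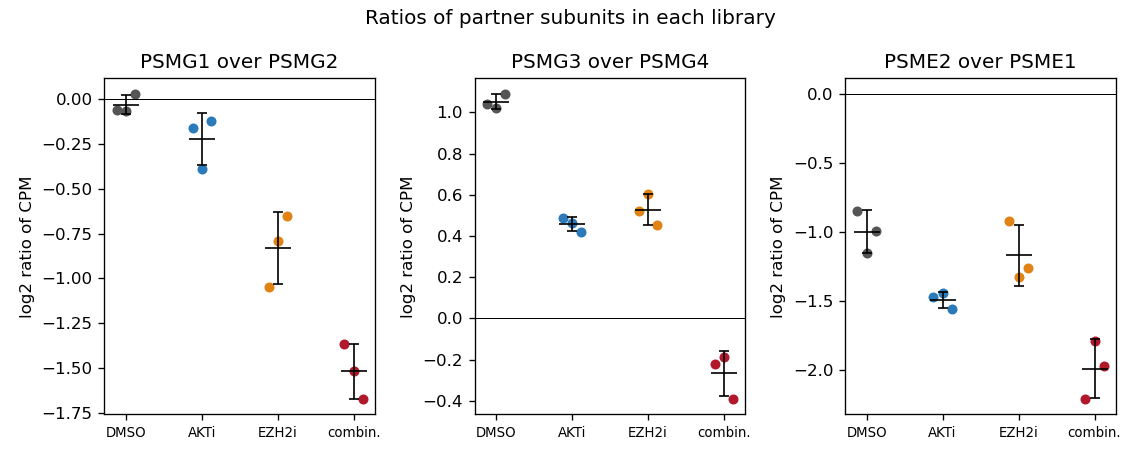
Log2 ratio of CPM (y axis) of PSMG1 to PSMG2, PSMG3 to PSMG4 and PSME2 to PSME1 in each library, by arm. Points are libraries, and the bars show the mean and SD of 3. All 3 ratios are lowest in the combination, and that of PSMG3 to PSMG4 goes from 1.05 in DMSO to -0.27.

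The inhibitor PSMF1 (chr20:1113263-1189415) changed little. It stood at 121, 108 and 124 CPM in DMSO, at 114, 116 and 120 with AKTi, at 98.6, 95.6 and 103 with EZH2i and at 106, 99.5 and 99.0 in the combination. EZH2i and combination libraries were below the DMSO libraries and overlapped each other. The log2 fold change was -0.21 ± 0.06 in the combination (SE, adjusted p = 0.00164), and under library-size scaling it was -0.02 and not called.

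PSMB10 (chr16:67934502-67937087) was the only proteasome gene called higher. It encodes the immunoproteasome counterpart of PSMB7. It had 14, 7 and 39 counts in the DMSO libraries, 27, 19 and 20 with AKTi, 30, 56 and 61 with EZH2i and 34, 48 and 48 in the combination, few for a fold change. In CPM these were 0.942, 0.516 and 1.87 in DMSO, 1.95, 1.33 and 1.39 with AKTi, 2.01, 3.27 and 2.80 with EZH2i, and 1.72, 2.77 and 2.90 with both. The combination overlapped with DMSO, and the EZH2i libraries were all above DMSO. The log2 fold change was 1.21 ± 0.35 with EZH2i (SE, adjusted p = 0.00269) and 1.06 ± 0.35 in the combination (adjusted p = 0.00707, edgeR). Without DMSO replicate B the combination value was 0.71 and not called (adjusted p = 0.0769, edgeR), and without DMSO replicate C the values were 1.87 with EZH2i and 1.72 in the combination. The gene that overlaps it on the same strand, AC040162.1, had its highest mean in DMSO, where PSMB10 had its lowest, with 2.28 ± 0.47 CPM in DMSO (SD, n = 3), 1.69 ± 0.71 with AKTi, 1.58 ± 0.05 with EZH2i and 1.12 ± 0.14 in the combination. Its part in the PSMB10 values was not tested.

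With the single agents, the leading genes were largely subunits and chaperones already named. AKTi lowered PSMD14 (-0.85), PSMG1 (-0.83) and PSMA3 (-0.80) most on the log2 scale, and its highest values were 0.41 for PSMB10, 0.05 for PSME1 and -0.01 for PSMF1, none called. EZH2i lowered PSMG1 (-1.47), PSMG3 (-1.16) and PSMA5 (-0.86) most, and after PSMB10 its highest values were -0.10 for PSMD4 and -0.19 for PSMD7, the latter not called under library-size scaling (-0.04). PSMA2, PSMA6, PSMD4, PSMD9, PSMB10, PSME1, PSMF1 and PSMG4 were not called with AKTi, and PSMA6 and PSMD4 were not called with EZH2i.

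The combination was then compared with each agent alone, which asks whether the second agent added to the first. Against AKTi, 39 of the 44 genes were lower and none was higher (32.1% and 32.1% of all genes), with a median log2 fold change of -0.54. Against EZH2i, 35 were lower and none higher (25.7% and 21.1% of all genes), with a median of -0.44. The genes furthest below AKTi were PSMG1 (-1.30), PSME2 (-1.09) and PSMG3 (-1.05), and those furthest below EZH2i were PSME2 (-1.03), PSMD14 (-0.93) and PSMA3 (-0.85). PSMB5, PSMB6 and PSMB7 changed by -0.79, -0.59 and -0.45 against AKTi and by -0.55, -0.33 and -0.31 against EZH2i, all called. At the other end stood PSMB10 (0.65), PSMG2 (-0.01) and PSMD5 (-0.10) against AKTi, and PSMG4 (0.17), PSMD9 (0.16) and PSMF1 (0.04) against EZH2i, none called. At an unadjusted p-value under 0.05, and with DESeq2, the number higher was also 0 in both comparisons. Altogether 33 genes were called lower than both single agents (19.7% of all genes), and 31 were lower in all 5 pairwise comparisons (11.3%). For 34 of the 44 genes every combination library was below every library of the other 3 arms, which held for 19.7% of all genes.

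Whether the joint fall differed from the sum of the single falls was tested as an interaction, the log2 change of the combination against EZH2i less that of AKTi against DMSO. It was called for 11 of 44 genes, below 0 for 8 and above 0 for 3 (17.5% and 10.7% of all genes), and its median was -0.06 against -0.05 over all genes. The number above 0 was 1 without DMSO replicate A or without combination replicate A, and 5 without DMSO replicate C. For 33 genes no departure from additivity on the log2 scale was detected at this number of libraries, with standard errors from 0.08 to 0.49 (PSMB10). Among the 3 proteolytic subunits only PSMB5 was called, at -0.33 ± 0.08 (SE, adjusted p = 0.0015, edgeR), while PSMB6 stood at 0.02 ± 0.09 and PSMB7 at -0.11 ± 0.08. The other genes below 0 were the activator subunits PSME2 (-0.58) and PSME1 (-0.25), the scaffolds PSMD2 (-0.40) and PSMD1 (-0.40), the lid subunits PSMD11 (-0.32) and PSMD3 (-0.25) and the ATPase PSMC4 (-0.29). Above 0 stood PSMC6 (0.28), PSMD8 (0.22) and PSMG2. PSMG2 had the highest value, 0.66 ± 0.11 (adjusted p = 9.40e-06, edgeR), and its combination libraries overlapped those of both single agents. The calls of PSMD8 and PSME1 were each lost when any of 8 libraries was left out, that of PSMD3 for 5 libraries and that of PSMC6 for 3. When every gene with any count was kept, PSMD8, PSMC6 and PSME1 were not called, and when 10 counts were required in every library PSME1 was not. The largest values not called were -0.55 for PSMB10, -0.33 for PSMA6, 0.31 for PSMD9 and 0.30 for PSMG4. That of PSMB10 was -0.21 without DMSO replicate B and -1.22 without DMSO replicate C, and that of PSMG4 was called without EZH2i replicate A (0.41, adjusted p = 0.0283, edgeR).

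**Figure D5:**
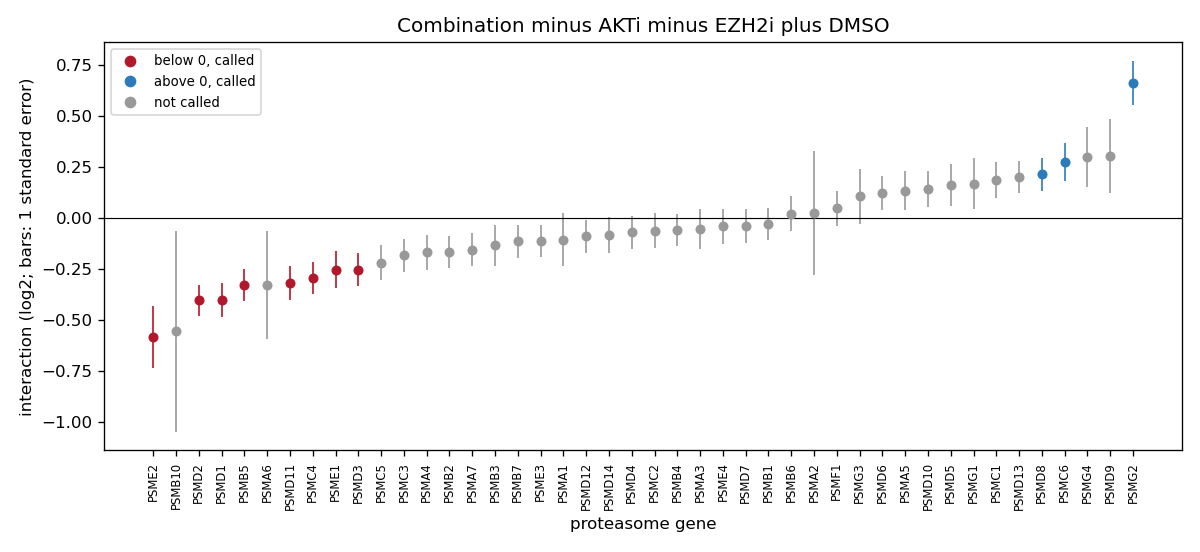
Interaction on the log2 scale (y axis) of the 44 proteasome genes (x axis, ordered by value). Points are edgeR estimates, bars 1 standard error, and colour marks genes called below 0 (8), above 0 (3) or not called (33). Values run from -0.58 for PSME2 to 0.66 for PSMG2.

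Some genes of proteins that work with the proteasome under other names were lower too. Of 17 such genes, 11 were lower and 1 higher in the combination (35.2% and 38.0% of all genes), with a median log2 fold change of -0.49. UCHL5, a deubiquitinase of the cap, was lowest at -1.24, and its receptor ADRM1 stood at -0.65. SEM1, a small lid subunit, was at -0.40, and POMP, which completes core assembly, at -0.54. MIDN, which carries proteins to the proteasome without ubiquitin, was highest: it stood at 59.7 ± 3.21 CPM in DMSO (SD, n = 3), 72.6 ± 4.44 with AKTi, 126 ± 13.5 with EZH2i and 89.2 ± 4.14 in the combination, a log2 fold change of 0.58.

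NFE2L1, the gene of the activator NRF1, moved opposite to the subunit genes. It stood at 213, 226 and 228 CPM in DMSO, at 252, 277 and 275 with AKTi, at 375, 367 and 397 with EZH2i and at 392, 389 and 370 in the combination. All treated libraries were above DMSO, and EZH2i and combination overlapped, with a log2 fold change of 0.79 in the combination (adjusted p = 1.07e-15, edgeR). RNA says nothing here of NRF1 protein, which is regulated by cleavage and turnover. Of the 7 genes listed for its pathway, 2 were higher and 2 lower in the combination, with a median of -0.06. Among all genes tested 38.0% and 35.2% were, so these counts are not above the background. MAFF, a small dimer partner, was highest at 2.27, from 1.19 ± 0.30 to 5.79 ± 0.41 CPM (SD, n = 3), and NGLY1, the enzyme that processes NRF1, was lowest at -0.58.

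All 6 ubiquitin and E1 enzyme genes were lower in the combination (35.2% of all genes), with a median of -0.62. Not every call in this list held under library-size scaling. UBB, a polyubiquitin gene, stood at 515 ± 35.7 CPM in DMSO (SD, n = 3), 460 ± 16.1 with AKTi, 440 ± 50.6 with EZH2i and 272 ± 10.8 in the combination, and had the lowest value, -0.92.

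Falls of this size were not limited to the proteasome. All 8 CCT chaperonin genes were lower in the combination, where 35.2% of all genes were, with a median log2 fold change of -1.36. The 9 COP9 signalosome genes, relatives of the lid, were all lower, with a median of -0.90. For eIF3, another relative of the lid, 10 of 13 genes were lower and 1 higher (35.2% and 38.0% of all genes), with a median of -0.49. These complexes are given as descriptions, and no difference between them and the proteasome was tested.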

How the data were processed

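PolyA RNA from 12 plates was sequenced. Per the labels, reads were aligned with STAR to the hg38 genome and counted per gene with HTSeq by the authors. The versions, the annotation, the strand setting and the treatment of reads on overlapping genes are not given in the sources used here. The deposited counts are whole numbers for 58735 genes. The deposited normalized values (unit signal) were made by the authors with DESeq2 and were not tested. They equal each count over 1 size factor per library for the 44 proteasome genes with counts (relative tolerance 0.0001). PSMA8 and PSMB11, at 0 counts, could not be checked. The file's gene length column was used for levels per kilobase. Of the proteasome genes, 27 overlap another gene and 12 do so on the same strand, and 32 pseudogenes named after them are listed, 11 with any count. The paper names 2 sequencing routes for its RNA-seq and does not say whether these 12 libraries were split between them. Any such split could not be modelled.

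Counts were analysed in R 4.3.3 with edgeR 4.0.16. Genes were kept by filterByExpr (minimum count 10, minimum total 15; 16646 genes), scaled by TMM and fitted with 1 mean per arm over 12 libraries by the quasi-likelihood test, with Benjamini-Hochberg adjustment at 0.05 over all genes tested. Mean log2 CPM used a prior count of 2. At 14133755 to 22276417 counts per library, counting error is small except for PSMA2, PSMA6, PSMD9 and PSMB10. Libraries of an arm differed by a chi-square of 2.57 to 7.77 per gene, above sampling noise. The replicate letters did not pair the samples (correlations of deviations from -0.06 to 0.07). On simulated data of 16103 genes tested, the test recovered 149 of 195 genes changed 2-fold between combination and DMSO, with 9 false calls among the unchanged genes. There few genes were changed, and only in the combination. In the data 35.2% and 38.0% of genes were called lower and higher, so these rates need not hold for them.

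Named are every proteasome gene in the combination, the 3 highest and 3 lowest elsewhere, PSMB5, PSMB6 and PSMB7, all interactions called, and fixed partners. Members, lists and tests were chosen with earlier results of these data known. Alternatives were DESeq2 1.42.0, library-size and upper-quartile scaling, filters of at least 1 count in total or 10 in every library, a replicate block, only the arms compared, other particle lists and each library left out. The alternative without genes overlapped on their strand was chosen after seeing the data.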

Additional observations from a re-analysis of the deposited data

Results flagged for a closer look

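The effect of AKTi on 11 proteasome genes differed with and without EZH2i, by edgeR's test of the interaction. It was more negative under EZH2i for 8 of 44 genes and less negative for 3, where 17.5% and 10.7% of all genes tested were called, so these counts are near or below the background. The values were -0.58 for the PA28 subunit PSME2 (adjusted p = 0.00303), -0.40 for the scaffold PSMD2 (adjusted p = 7.63e-05), -0.40 for its relative PSMD1 (adjusted p = 0.000354), -0.33 for the proteolytic subunit PSMB5 (adjusted p = 0.0015), -0.32 for the lid subunit PSMD11 (adjusted p = 0.00419), -0.29 for the ATPase PSMC4 (adjusted p = 0.00385), -0.25 for PSME1 (adjusted p = 0.0343) and -0.25 for the lid subunit PSMD3 (adjusted p = 0.0156). It was less negative for the lid subunit PSMD8, at 0.22 (adjusted p = 0.044), the ATPase PSMC6, at 0.28 (adjusted p = 0.0213), and the chaperone PSMG2, at 0.66 (adjusted p = 9.40e-06).

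Of these, PSMD8 and PSME1 each lost the call when any of 8 single libraries was left out, PSMD3 with any of 5 and PSMC6 with any of 3. With at least 1 count in total PSMD8 (adjusted p = 0.172, edgeR), PSMC6 (0.063) and PSME1 (0.067) were not called, and with 10 counts in every library PSME1 (0.0526) was not. PSME2, PSMD2, PSMD1, PSMB5, PSMD11, PSMC4 and PSMG2 kept theirs with each of the 12 libraries left out in turn and under every other setting run.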

How the results depend on the processing

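Of 106 single-gene results under every alternative (1993 values), 1925 kept their direction and their side of the threshold, 39 lost a call, 9 gained 1 and 20 turned direction. The number of genes called lower stayed within 1.5 times its value in all 6 comparisons under every alternative. DESeq2 moved no count of genes by that much in the 5 pairwise comparisons, and the replicate block called 43 genes lower and 1 higher in the combination against DMSO, with no call of these 106 changed. PSMB10, the only gene called higher, failed the filter of 10 counts in every library, so the number called higher was 0 with EZH2i and 0 in the combination, as it was (0 and 0) without the overlapped genes. The number higher against AKTi was 1 under library-size and 1 under upper-quartile scaling (PSMB10). Interactions called above 0 numbered 1 with at least 1 count in total and 5 with 10 in every library. With single libraries left out, the number called higher ran from 0 to 1 in the combination against DMSO (0 without DMSO replicate B), against AKTi (1, PSMB10, without combination replicate A) and against EZH2i (1, PSMG4, without EZH2i replicate A). For the interaction it ran from 1 (without DMSO replicate A or combination replicate A) to 5 (without DMSO replicate C).

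The core minus regulatory median was -0.21 in the combination against DMSO and -0.07 against EZH2i, and with ADRM1 and SEM1 added to the regulatory list -0.33 and -0.15. With single libraries left out it ran from -0.27 to -0.12 against DMSO, from -0.27 to -0.12 against AKTi, from -0.12 to -0.047 against EZH2i, and from -0.15 to 0.0061 for AKTi against DMSO, turning positive without DMSO replicate B. The lowest sizes, -0.12 and -0.12, came without combination replicate B, and against EZH2i it was -0.12 without combination replicate C and -0.11 without EZH2i replicate C. The cause was not tested.

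Direction turned only for values near 0 that were not called. Under library-size and upper-quartile scaling these were PSMD4 with EZH2i (0.045 and 0.019), PSMF1 with AKTi (0.046 and 0.045), PSMD5 in the combination against AKTi (0.036 and 0.025) and PSMG2 there (0.13 and 0.11), and PSMG2 also with the filter of 10 counts (0.054). PSMF1 with AKTi stood at 3.18e-05 with only the arms compared. With single libraries left out, the range crossed 0 for PSMF1 (-0.095 to 0.025) and PSME1 (-0.0089 to 0.077) with AKTi, PSMG2 against AKTi (-0.091 to 0.045), PSMF1 against EZH2i (-0.000114 to 0.084) and the PSMB6 interaction (-0.033 to 0.096). PSMB10, PSMA2 and PSMA6 had few counts.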
